A study of Mus musculus with 7 samples.

Results

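The 42 genes described here encode the junctions and the polarity machinery of epithelial cells. They were the gene rows whose name matched a list of tight junction, adherens junction, desmosome, polarity and apical linker genes, and all 42 were found once each among 22738 rows. Expression was measured by RNA sequencing of epicardial explants, the cells that migrate from the outer layer of E12.5 mouse heart ventricles onto gelatin. Ventricles were removed after 48 hours and the cells grew on for 72 hours without treatment. The 3 Lmnb1-/- libraries came from embryos lacking Lmnb1, the gene of the nuclear lamina protein lamin B1, and the 4 wild type libraries from embryos without that deletion. The strain of both groups was mixed, from C57BL/6, 129S4Sv/Jae and 129S6/SvEvTac. The labels do not say how the deletion was made or whether replicates came from separate embryos, so p-values measure the spread between these libraries.

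The epicardium is a mesothelium, a flat epithelium that covers the heart, and part of it loses its junctions during the epithelial to mesenchymal transition that gives rise to fibroblasts and mural cells. Tight junctions seal neighbouring cells with claudins, occludin and junctional adhesion molecules, tied to actin by the ZO and cingulin plaque proteins. Adherens junctions join cells through cadherins and nectins, with p120 among the catenins there and alpha catenin tying the junction to actin. Desmosomes couple keratin filaments through plakophilins, plakoglobin and desmoplakin. The Crumbs, Par and Scribble complexes set apical and basal sides, and ezrin, radixin and moesin (the ERM proteins) tie the apical membrane to actin.

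Total counts ran from 1786519 to 3066936 in Lmnb1-/- libraries and from 1024898 to 2732236 in wild type libraries. Lmnb1 itself had 4, 2 and 4 counts in Lmnb1-/- replicates 1 to 3, against 463, 185, 488 and 567 in wild type replicates 1 to 4. Xist and Y-linked counts placed all 3 Lmnb1-/- libraries and wild type replicates 2 and 4 as male, and wild type replicates 1 and 3 as female. Levels are given as CPM, counts scaled to one common library size (1e6) after TMM scaling. Levels of different genes are compared as CPM per kb of exon. Shares of a family's counts are also given, and these are not corrected for gene length.

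Of the 42 members, Msn, Ctnna1 and Ezr had the highest levels per length, while Cldn7 and Crb3 had no count in any library. A filter on low counts passed 29 of the 42 members and left 13 untested: Epcam, Tjp3, Ocln, Cldn1, Cldn3, Cldn4, Cldn7, Cldn10, Cldn11, Jam2, Marveld2, Ppl and Crb3. Their highest count in any library was 17. Epcam, the epithelial adhesion molecule used to sort epithelia, had 1, 3 and 1 counts in Lmnb1-/- and 0, 0, 0 and 1 in wild type libraries. Ocln, encoding occludin, had 0, 2 and 2 counts in Lmnb1-/- and 0, 0, 1 and 1 in wild type libraries. Both genes stayed at the edge of detection in either group, and no fold is given for them. Cldn7, a claudin of simple epithelia, and Crb3, the Crumbs subunit of most epithelia, had 0 counts in all 7 libraries. At these depths a count of 0 allows up to 0.439 CPM over the Lmnb1-/- libraries and 0.362 CPM over the wild type libraries, for counting error alone. Cdh1, encoding E-cadherin and not one of the 42, had 1 count in Lmnb1-/- libraries and 2 in wild type libraries.

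Among the untested genes Cldn1, Cldn3 and Jam2 had counts in all 7 libraries, Cldn4 and Ppl in 6, Marveld2 in 5, and Ocln and Epcam in 4. Cldn1, a claudin of the epidermal barrier, had 11, 5 and 5 counts in Lmnb1-/- libraries and 3, 2, 5 and 1 in wild type libraries. These were 3.54, 2.80 and 2.57 CPM in Lmnb1-/- replicates 1 to 3, against 1.30, 2.07, 1.88 and 0.422 CPM in wild type replicates 1 to 4, ranges that did not overlap but rest on few counts. Cldn3 and Cldn4, neighbouring genes on chromosome 5, were uneven among wild type libraries. Cldn3 had 7, 5 and 5 counts in Lmnb1-/- and 2, 1, 17 and 3 in wild type libraries. Cldn4 had 2, 2 and 3 counts in Lmnb1-/- and 5, 0, 11 and 3 in wild type libraries. Both were highest in wild type replicate 3.

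**Figure D1:**
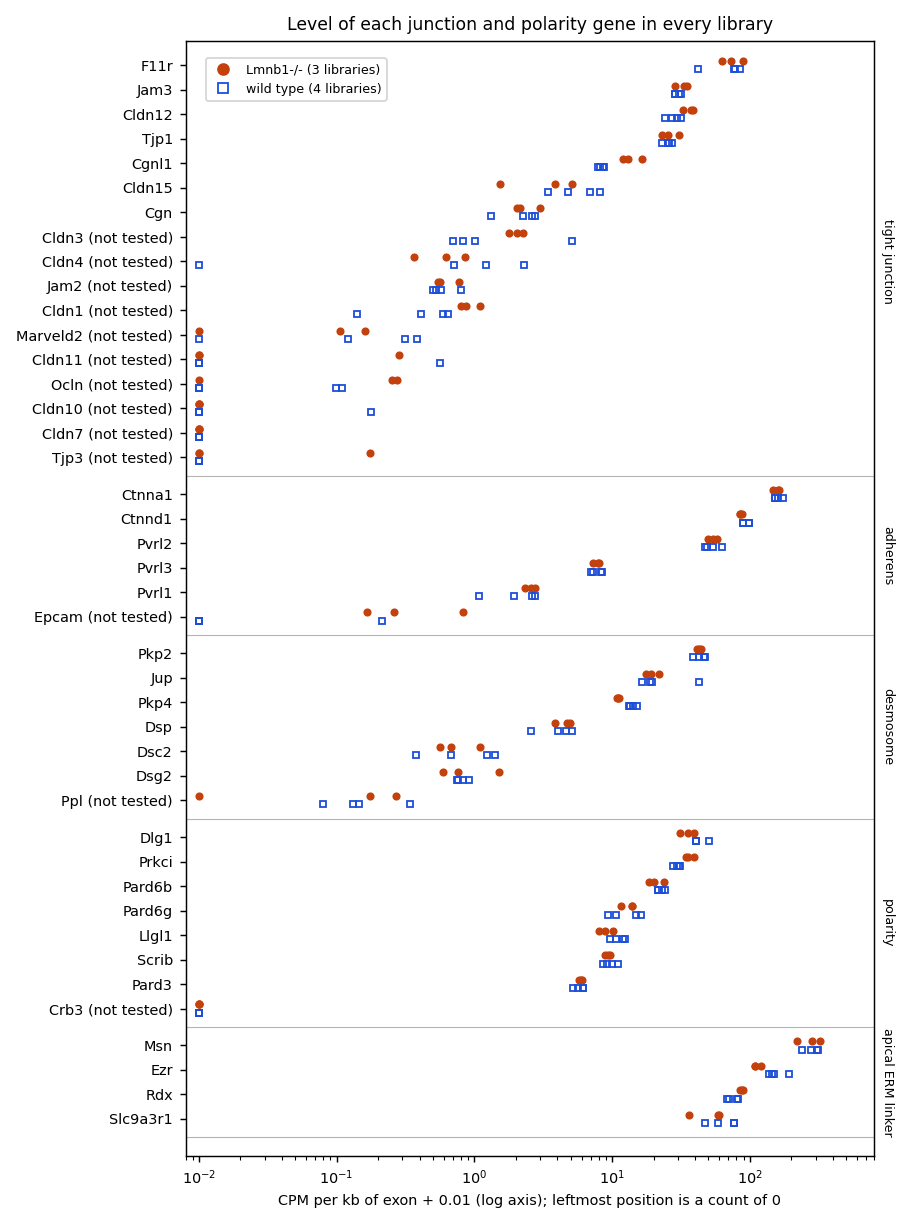
Level of all 42 members in CPM per kb of exon plus 0.01 on a log axis, for 3 Lmnb1-/- libraries (filled circles) and 4 wild type libraries (open squares), grouped by class. Msn, Ctnna1 and Ezr lie at the right end and the 13 untested members toward the left. Cldn7 and Crb3 are at a count of 0 in every library. By mean level, untested Cldn3 lies to the right of the tested Dsg2 and Dsc2.

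Sequences around the start of these genes are shown because promoters of untested and tested members held the E-box letters CACCTG at different rates. The Snail and Zeb repressors of epithelial genes are known to bind these letters. RefSeq windows of 300 bases (build GRCm38.p6) were on hand for 32 of the 42 members and were searched on both strands, so CAGGTG counts as the same motif. The letters were found in 8 of 11 untested members (72.7%), namely Cldn3, Cldn4, Cldn7, Crb3, Epcam, Marveld2, Ocln and Tjp3, and not in Cldn1, Cldn10 and Cldn11. They were found in 7 of 21 tested members (33.3%), namely Dlg1, Dsp, F11r, Pard3, Pard6b, Pkp4 and Pvrl2. Over all 27025 genes with a window the share was 22.6%. The median share of G and C bases was 60.7% in windows of untested members, 63.5% for tested members and 52.7% over all genes. The motif shares were not corrected for this. Genes have from 1 to several windows, some of them overlapping, and by window the shares were 12 of 17 for untested members, 7 of 30 for tested members and 20.2% of all 32851 windows. These are descriptions of letters after the levels were seen, with no test, and say nothing of whether a factor was bound. The windows of 4 untested genes are given with the motif in capitals, then Cldn1, an untested gene without it, and F11r, an abundant gene with it. Cgnl1 and Ezr, the members of smallest p between genotypes, follow and held no match. Where a gene had several windows, the one with the most matches is given. The other window of Ocln held 1 match and that of Crb3 held 4.
Epcam (chr17:87635729-87636028, plus strand): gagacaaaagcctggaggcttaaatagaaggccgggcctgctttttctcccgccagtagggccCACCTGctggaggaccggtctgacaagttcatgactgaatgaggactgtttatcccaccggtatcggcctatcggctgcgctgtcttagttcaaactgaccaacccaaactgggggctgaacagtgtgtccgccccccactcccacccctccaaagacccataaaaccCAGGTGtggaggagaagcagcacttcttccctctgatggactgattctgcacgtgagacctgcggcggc
Ocln (chr13:100552449-100552748, minus strand): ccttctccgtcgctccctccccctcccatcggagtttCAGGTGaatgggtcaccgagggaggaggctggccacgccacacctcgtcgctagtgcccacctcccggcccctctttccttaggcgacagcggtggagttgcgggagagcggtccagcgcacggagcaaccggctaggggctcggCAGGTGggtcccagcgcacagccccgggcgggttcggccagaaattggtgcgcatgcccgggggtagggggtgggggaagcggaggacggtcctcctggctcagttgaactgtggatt
Cldn4 (chr5:134946885-134947184, minus strand): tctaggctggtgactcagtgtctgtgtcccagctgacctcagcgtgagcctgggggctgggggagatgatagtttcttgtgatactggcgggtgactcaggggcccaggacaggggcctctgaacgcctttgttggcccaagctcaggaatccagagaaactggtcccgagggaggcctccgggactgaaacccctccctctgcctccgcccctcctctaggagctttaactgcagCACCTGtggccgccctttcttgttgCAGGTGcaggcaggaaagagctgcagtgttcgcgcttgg
Crb3 (chr17:57061951-57062250, plus strand): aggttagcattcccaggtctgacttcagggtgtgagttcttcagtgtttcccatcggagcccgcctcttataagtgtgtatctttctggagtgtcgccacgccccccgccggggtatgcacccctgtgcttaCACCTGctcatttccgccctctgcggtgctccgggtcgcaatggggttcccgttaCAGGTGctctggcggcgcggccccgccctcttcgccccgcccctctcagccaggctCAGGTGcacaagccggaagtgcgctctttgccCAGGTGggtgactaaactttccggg
Cldn1 (chr16:26371790-26372089, minus strand): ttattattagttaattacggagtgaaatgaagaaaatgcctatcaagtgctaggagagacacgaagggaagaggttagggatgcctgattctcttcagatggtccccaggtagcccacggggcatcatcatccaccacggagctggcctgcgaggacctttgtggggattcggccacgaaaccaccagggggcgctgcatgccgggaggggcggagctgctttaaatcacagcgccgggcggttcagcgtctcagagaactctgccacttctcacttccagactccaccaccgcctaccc
F11r (chr1:171437311-171437610, plus strand): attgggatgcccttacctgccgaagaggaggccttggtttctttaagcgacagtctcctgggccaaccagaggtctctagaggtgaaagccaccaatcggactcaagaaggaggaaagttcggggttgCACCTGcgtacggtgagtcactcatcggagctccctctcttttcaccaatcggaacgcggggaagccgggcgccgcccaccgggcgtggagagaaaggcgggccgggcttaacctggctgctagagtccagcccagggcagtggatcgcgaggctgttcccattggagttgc
Cgnl1 (chr9:71771553-71771852, minus strand): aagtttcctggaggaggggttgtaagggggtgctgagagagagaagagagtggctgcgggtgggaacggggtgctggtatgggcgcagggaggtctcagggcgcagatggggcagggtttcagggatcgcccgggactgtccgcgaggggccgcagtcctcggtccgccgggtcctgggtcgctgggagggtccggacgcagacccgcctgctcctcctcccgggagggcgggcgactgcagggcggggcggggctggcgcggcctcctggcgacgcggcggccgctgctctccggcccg
Ezr (chr17:6782731-6783030, minus strand): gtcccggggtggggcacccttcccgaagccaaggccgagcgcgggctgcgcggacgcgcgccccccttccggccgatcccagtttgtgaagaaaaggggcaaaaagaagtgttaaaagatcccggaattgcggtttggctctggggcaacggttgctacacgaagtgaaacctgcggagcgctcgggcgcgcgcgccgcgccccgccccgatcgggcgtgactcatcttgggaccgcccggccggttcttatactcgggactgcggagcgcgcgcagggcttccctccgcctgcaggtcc
The Crb3 window held 4 matches, those of Epcam, Ocln and Cldn4 held 2 each, and that of F11r held 1. The windows of Cgnl1, Ezr and F11r had 30, 38 and 19 CpG pairs, and those of Epcam, Ocln, Cldn4, Crb3 and Cldn1 had 11, 24, 9, 20 and 15.

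In the comparison of Lmnb1-/- with wild type explants, 1 of the 29 tested members was called higher, Cgnl1, and none was called lower. The test was edgeR's quasi-likelihood F test, with Benjamini-Hochberg adjusted p-values over all 10775 tested genes and a threshold of 0.05. Over all genes 0.705% were called, 0.362% higher and 0.343% lower, and 1 in 29 is 3.45% of the members. The members' median log2 fold change was -0.0093, with 14 above and 15 below 0, and that of all tested genes was -0.015. The members' median was 0.064 without wild type replicate 2 and 0.073 with library number groups as a block. In 27 of the 29 the log2 fold change was smaller than 0.5 in size, and in 26 the 95% interval lay between -1 and 1. An unadjusted p under 0.05 was found for 6 members (20.7%) and for 13.6% of all tested genes. The 2 genotypes had CPM ranges apart in 8 members (27.6%), 4 higher and 4 lower, and in 13.3% of all tested genes. In bulk RNA such as this, fewer cells of a type and less RNA per cell cannot be told apart.

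**Figure D2:**
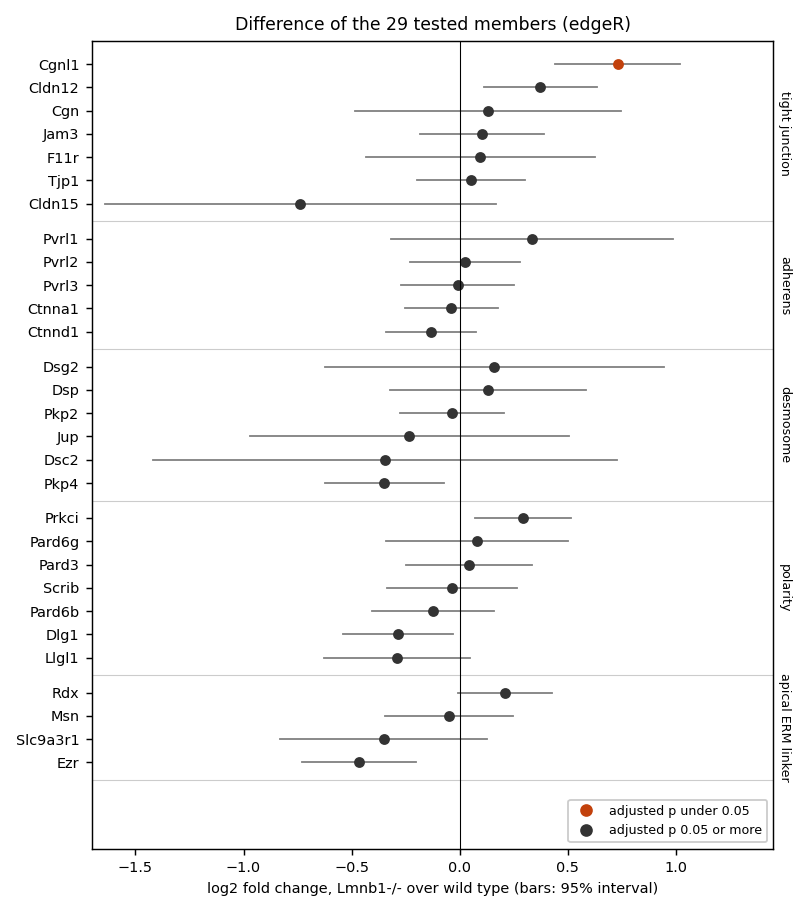
Log2 fold change, Lmnb1-/- over wild type, of the 29 tested members by class, with 95% intervals from the edgeR fit. Cgnl1 at 0.73 is the one member past the adjusted threshold, and most other points lie within 0.5 of 0.

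Tight junction members were carried by a few abundant genes, and the plaque gene Cgnl1 was the only one called. Cgnl1 encodes paracingulin, a protein of the tight and adherens junction plaque. It had 119, 94.2 and 87.4 CPM in Lmnb1-/- replicates 1 to 3, against 63.1, 56.8, 62.1 and 59.5 CPM in wild type replicates 1 to 4. Every Lmnb1-/- library lay above every wild type library, and the wild type libraries were close together. The means were 100.1 ± 16.5 CPM in Lmnb1-/- (SD, n = 3) and 60.4 ± 2.82 CPM in wild type explants (SD, n = 4), a rise of 1.66-fold or 0.73 on the log2 scale (SE 0.13, edgeR adjusted p = 0.0337). The direction held in each of 18 alternatives, but the call was lost in edgeR when sex was added as a covariate (adjusted p = 0.0865) and within male libraries (0.0628), and on leaving out any library but wild type replicate 1. Adjusted p-values on leaving out wild type replicates 2, 3 and 4 were 0.0514, 0.100 and 0.0796, and on leaving out Lmnb1-/- replicates 1, 2 and 3 they were 0.173, 0.142 and 0.0579, in the same edgeR test. Calls over all genes also varied, with 0.353% called with the sex covariate, 0.895% within male libraries, 0.913% with the replicate block and 0.863% with library number groups as a block. The share was 2.63, 0.374, 0.0378 and 0.266% without wild type replicates 1 to 4, and 0.0367, 0.0273 and 0.118% without Lmnb1-/- replicates 1 to 3.

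The paralogue Cgn, encoding cingulin, was less abundant per length than Cgnl1, at 2.39 against 13.8 CPM per kb in the Lmnb1-/- explants, and did not pass. It had 12.2, 12.9 and 18.0 CPM in Lmnb1-/- and 15.7, 16.5, 7.91 and 13.5 CPM in wild type libraries, which overlapped. A further 29.2% of the counts of Cgn stood in a second count column whose meaning the files do not state. Cgnl1 had none there.

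Cldn12, a claudin without the PDZ-binding tail of most claudins, held most of the claudin counts. Its share of the counts of the 25 Cldn rows was 93.9, 90.4 and 88.0% in Lmnb1-/- libraries and 91.1, 83.2, 80.3 and 88.0% in wild type libraries. Its level was 153, 148 and 128 CPM in Lmnb1-/- and 116, 107, 95.3 and 124 CPM in wild type libraries, with no overlap. The log2 fold change was 0.37 (SE 0.12, edgeR adjusted p = 0.199), and so was not called. Cldn15, a claudin that forms cation pores, had 2.89, 7.29 and 9.76 CPM in Lmnb1-/- and 6.52, 15.5, 9.04 and 13.1 CPM in wild type libraries, overlapping ranges with a log2 fold change of -0.74 and a wide 95% interval of -1.64 to 0.17. The value was -0.30 without Lmnb1-/- replicate 1 and -1.14 without Lmnb1-/- replicate 3.

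F11r, encoding the junctional adhesion molecule JAM-A, was the most abundant tight junction member per length, at 75.1 CPM per kb in Lmnb1-/- and 70.3 in wild type explants. Its libraries were spread, with 159, 225 and 183 CPM in Lmnb1-/- and 105, 195, 214 and 194 CPM in wild type, and its log2 fold change was 0.10 with a 95% interval of -0.43 to 0.63. Jam3, encoding JAM-C, had a log2 fold change of 0.10 and Tjp1, encoding the scaffold ZO-1, of 0.05. Their 95% intervals, -0.18 to 0.39 and -0.20 to 0.30, lay within 0.5 of 0. Within the JAM family F11r took 73.8 ± 3.27% of counts in Lmnb1-/- (SD, n = 3) and 73.2 ± 6.34% in wild type libraries (SD, n = 4).

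**Figure D3:**
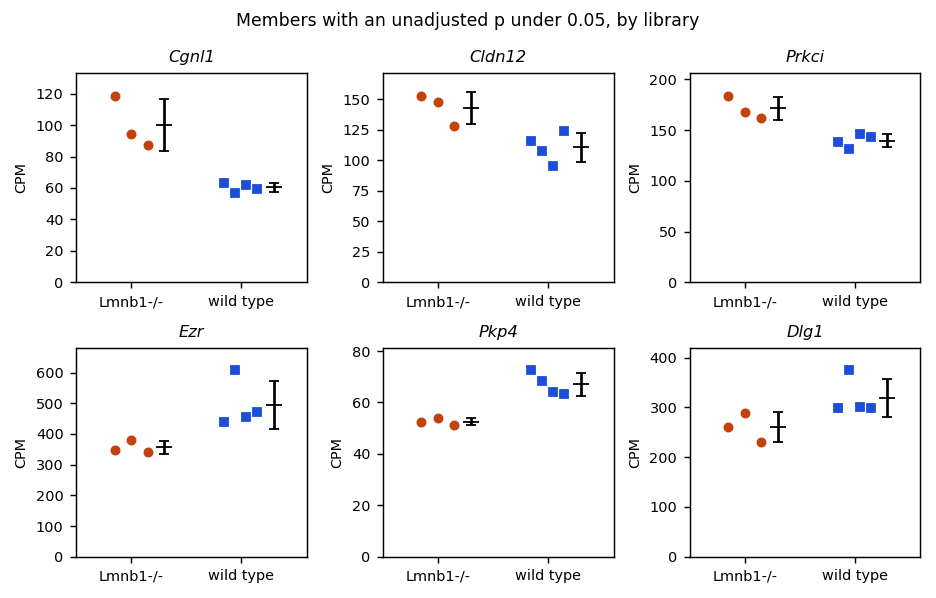
CPM in each library (Lmnb1-/- circles, wild type squares, with mean ± SD beside them) of the 6 members with an unadjusted p under 0.05. In each panel the groups do not overlap, with Cgnl1, Cldn12 and Prkci higher and Ezr, Pkp4 and Dlg1 lower in Lmnb1-/- explants, of which Cgnl1 alone passed adjustment.

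Adherens junction members had small fold changes, with 0 of 5 tested members called and a median log2 fold change of -0.0093. Ctnna1, encoding alpha catenin, was at 156 CPM per kb in Lmnb1-/- and 160 in wild type explants. It had 605, 595 and 547 CPM in Lmnb1-/- and 572, 655, 569 and 600 CPM in wild type libraries, ranges that overlapped, with a log2 fold change of -0.04 and a 95% interval of -0.25 to 0.18. Ctnnd1, encoding p120 catenin, had 564, 547 and 542 CPM in Lmnb1-/- and 573, 640, 635 and 574 CPM in wild type libraries. These ranges lay apart by a small margin, the log2 fold change was -0.13 (SE 0.10), and edgeR gave an adjusted p of 0.581.

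Pvrl1, Pvrl2 and Pvrl3 are older names of the nectin genes Nectin1, Nectin2 and Nectin3, whose proteins start cell contacts before cadherins gather. Pvrl2 was the main one, with 62.4 ± 2.06% of the counts of the 4 nectin rows in Lmnb1-/- (SD, n = 3) and 62.2 ± 4.07% in wild type libraries (SD, n = 4). Its levels of 172, 198 and 186 CPM in Lmnb1-/- overlapped with 185, 217, 168 and 162 CPM in wild type libraries. Pvrl3 had a log2 fold change of -0.0093 with a 95% interval of -0.27 to 0.25. Pvrl1 had 13.2, 14.6 and 15.4 CPM in Lmnb1-/- and 14.8, 15.5, 6.03 and 10.96 CPM in wild type libraries, and its 95% interval was -0.32 to 0.99. Its log2 fold change was 0.33, but 0.084 on leaving out wild type replicate 3 and 0.51 on leaving out wild type replicate 1.

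Desmosome members were present without their cadherins at comparable levels. Pkp2, encoding plakophilin 2, was at 42.8 CPM per kb in Lmnb1-/- and 43.9 in wild type explants, whereas the cadherin genes Dsg2 and Dsc2 were at 0.941 and 0.771 CPM per kb in Lmnb1-/- and 0.803 and 0.916 in wild type explants. Dsp, encoding desmoplakin, lay between them at 4.48 CPM per kb in Lmnb1-/- and 4.10 in wild type explants. None of the 6 tested members passed, and the median log2 fold change was -0.14, a value that was 0.038 without wild type replicate 2, -0.24 without Lmnb1-/- replicate 2 and -0.0037 with library number groups as a block.

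Pkp4, encoding an armadillo protein of desmosomes and adherens junctions (p0071), was the desmosome member of smallest p. It had 52.4, 53.8 and 51.4 CPM in Lmnb1-/- and 72.6, 68.2, 64.0 and 63.3 CPM in wild type libraries. The groups did not overlap and the Lmnb1-/- libraries were nearly equal, with a log2 fold change of -0.35 (SE 0.13) and an edgeR adjusted p of 0.256. Pkp4 made 28.6, 29.9 and 29.1% of the plakophilin counts in Lmnb1-/- and 34.3, 34.7, 35.8 and 31.2% in wild type libraries, a ratio within each library that library scaling cannot move. Pkp2 itself had 129, 125 and 121 CPM in Lmnb1-/- and 137, 125, 113 and 138 CPM in wild type libraries, which overlapped.

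Jup, encoding plakoglobin, which serves both desmosomes and adherens junctions, had 70.7, 57.2 and 62.2 CPM in Lmnb1-/- and 60.9, 138, 62.9 and 53.1 CPM in wild type libraries. Wild type replicate 2, the shallowest library, stood far above all others. The log2 fold change was -0.23, and 0.12 without that library, neither past the threshold. Dsp had 37.0, 47.1 and 44.7 CPM in Lmnb1-/- and 24.8, 44.4, 38.8 and 49.3 CPM in wild type libraries, with a log2 fold change of 0.13. Dsc2, encoding desmocollin 2, had 8, 9 and 6 counts in Lmnb1-/- and 15, 3, 15 and 4 in wild type libraries, which is too few to read a direction.

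**Figure D4:**
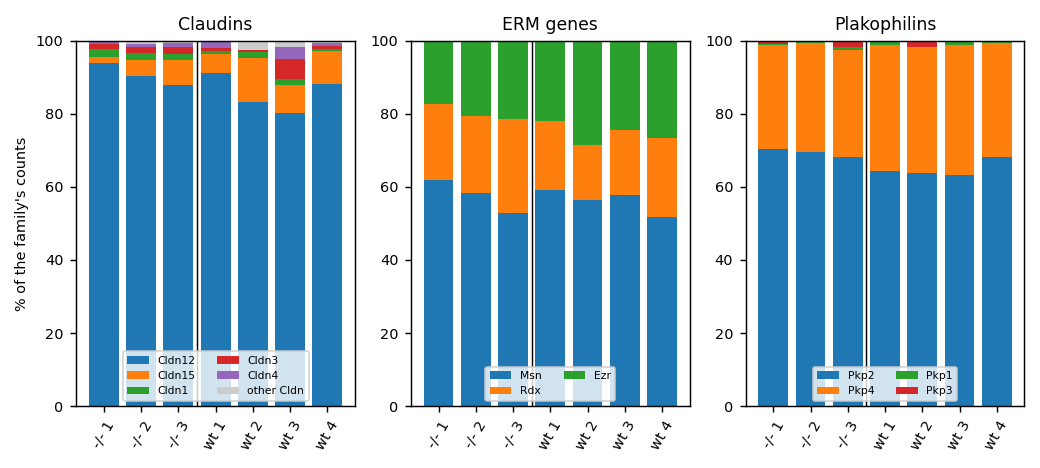
Percent of a family's counts taken by each gene in every library, Lmnb1-/- (left of the line) and wild type, for the 25 Cldn rows, the 3 ERM genes and the 4 plakophilins. Ezr takes 17.4 to 21.5% of the ERM counts in Lmnb1-/- and 22.0 to 28.6% in wild type libraries, and Cldn12 takes over 80% of claudin counts in each library.

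Polarity members divided into some that were higher and some that were lower, none past the threshold. Of 7 tested, 3 were above and 4 below 0, and their median was -0.036 on the log2 scale. It was -0.19 with sex as a covariate, -0.20 within male libraries, 0.024 without wild type replicate 2 and 0.0090 with library totals. Prkci, encoding the atypical protein kinase C of the Par complex, had 184, 168 and 162 CPM in Lmnb1-/- and 138, 131, 146 and 143 CPM in wild type libraries. All Lmnb1-/- libraries lay above all wild type libraries, with a log2 fold change of 0.29 (SE 0.10) and an edgeR adjusted p of 0.238. Its partners in the complex gave log2 fold changes of 0.04 for Pard3, -0.12 for Pard6b and 0.08 for Pard6g, with intervals that reached no further than -0.40 and 0.50.

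Dlg1 and Llgl1 of the basolateral Scribble complex had negative values. Dlg1, encoding the scaffold Discs large 1, had 261, 289 and 230 CPM in Lmnb1-/- and 299, 375, 301 and 298 CPM in wild type libraries. The groups did not overlap, and the log2 fold change was -0.29 (SE 0.12, edgeR adjusted p = 0.311). Llgl1, encoding Lethal giant larvae 1, had 39.2, 35.3 and 44.7 CPM in Lmnb1-/- and 52.6, 54.8, 42.2 and 46.8 CPM in wild type libraries, which overlapped, with a log2 fold change of -0.29. Scrib, encoding Scribble, had a log2 fold change of -0.04 and a 95% interval of -0.34 to 0.27.

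The apical linkers included the most abundant member, and the ezrin and radixin genes had values on opposite sides of 0, neither past the threshold. Msn, encoding moesin, stood highest at 274 CPM per kb in Lmnb1-/- and 284 in wild type explants. It had 1234, 1084 and 844 CPM in Lmnb1-/- and 1178, 1204, 1076 and 914 CPM in wild type libraries, which overlapped, with a log2 fold change of -0.05. Ezr, encoding ezrin, the ERM protein of epithelial apical membranes, had 348, 381 and 342 CPM in Lmnb1-/- and 438, 609, 457 and 471 CPM in wild type libraries. Every Lmnb1-/- library lay below every wild type library, and wild type replicate 2 was the highest. The means were 357 ± 20.9 CPM in Lmnb1-/- (SD, n = 3) and 494 ± 77.8 CPM in wild type explants (SD, n = 4), with a log2 fold change of -0.46 (SE 0.12) and an edgeR adjusted p of 0.108, which did not pass. Ezr passed with DESeq2 (adjusted p = 0.0348), which called 1.62% of all genes, and in edgeR without a count filter (0.0435), which called 1.07%, and without wild type replicate 1 (0.0438).

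Rdx, encoding radixin, had 413, 394 and 409 CPM in Lmnb1-/- and 376, 318, 329 and 378 CPM in wild type libraries, ranges that did not overlap, with a log2 fold change of 0.21 (SE 0.10) and an edgeR adjusted p of 0.388. Within the ERM genes Ezr took 17.4, 20.5 and 21.5% of counts in Lmnb1-/- and 22.0, 28.6, 24.5 and 26.7% in wild type libraries. The shares lay apart by a small margin, and like those of the plakophilins they do not depend on library scaling. Slc9a3r1, encoding the scaffold NHERF1 that binds ezrin, had 69.8, 113 and 115 CPM in Lmnb1-/- and 91.3, 114, 147 and 147 CPM in wild type libraries, which overlapped, with a log2 fold change of -0.35 (95% interval -0.83 to 0.13), or -0.14 without Lmnb1-/- replicate 1. It also had 9.14% of its counts in the second column.

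**Figure D5:**
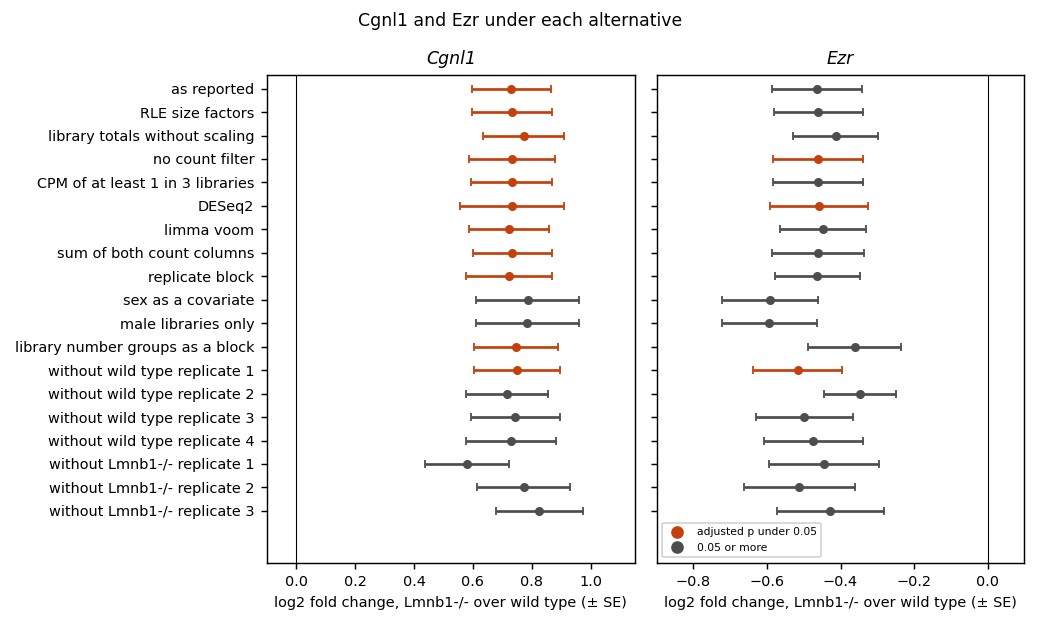
Log2 fold change ± SE, Lmnb1-/- over wild type, of Cgnl1 and Ezr as reported and under each of 18 alternatives, coloured where the adjusted p was under 0.05. Cgnl1 runs from 0.58 to 0.83 and Ezr from -0.59 to -0.35, without a change of sign.

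Of 95 other junction, polarity and epithelial regulator genes listed by role, 94 had a gene row, 59 were tested and 0 passed edgeR's test, with 13 at an unadjusted p under 0.05 (22.0%, against 13.6% of all tested genes) and a median log2 fold change of -0.051. DESeq2, which called 1.62% of all genes, called 4 of them, Krt8 and Amot higher and Crb2 and Cdh3 lower. Cdh3, encoding P-cadherin, had 128, 108 and 123 CPM in Lmnb1-/- and 187, 217, 145 and 161 CPM in wild type libraries, with no overlap, a log2 fold change of -0.55 and an edgeR adjusted p of 0.0935. Cdh2, encoding N-cadherin, and Ctnnb1, encoding beta catenin, had log2 fold changes of -0.16 and -0.0018. Vcl, encoding the actin linker vinculin, and Lmo7, encoding an afadin-binding protein, had -0.34 and -0.96 and did not pass.

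Crb2, a Crumbs gene with counts in every library where Crb3 had none, had 73.6, 83.0 and 69.4 CPM in Lmnb1-/- and 116, 178, 98.7 and 105 CPM in wild type libraries. The groups did not overlap, with a log2 fold change of -0.69 (SE 0.19) and an edgeR adjusted p of 0.124. The polarity genes Mpp7 and Mark3 had log2 fold changes of -0.28 and -0.19. Among tight junction associates, Amot, encoding the actin-binding angiomotin, had 244, 171 and 134 CPM in Lmnb1-/- and 128, 118, 93.4 and 99.9 CPM in wild type libraries, with a log2 fold change of 0.75 and an edgeR adjusted p of 0.117. The value of Amot was 0.47 without Lmnb1-/- replicate 1. Amot lies on the X chromosome, as does the member Msn, and the genotypes differed in the sexes of their libraries. The 18 alternatives included sex as a covariate and male libraries only. Over them the log2 fold change of Amot ran from 0.47 to 0.94 and that of Msn from -0.18 to 0.094. The cause of these differences was not tested. Csda, encoding the Y-box factor ZONAB that binds ZO-1, and Inadl, encoding the Crumbs scaffold PATJ, had 0.66 and -0.41.

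Krt8, Krt18 and Krt7, genes of simple epithelial keratins, the filaments that desmosomes anchor, had positive values in each alternative. Krt8 had 60.1, 112 and 68.3 CPM in Lmnb1-/- and 54.4, 31.0, 32.4 and 51.9 CPM in wild type libraries, which did not overlap, with a log2 fold change of 0.87 (SE 0.26) and an edgeR adjusted p of 0.183. Its filament partner Krt18 had 0.37 and Krt7 0.24, neither past the threshold. Without Lmnb1-/- replicate 2 the values were 0.57 for Krt8 and 0.20 for Krt18, and that of Podxl, given next, was 0.37. Of the apical linkers outside the 42, Slc9a3r2, encoding NHERF2, had -0.44, Podxl, encoding podocalyxin, 0.93 and Nf2, encoding merlin, 0.15. Klf4 and Klf5, Krüppel-like factors found in many epithelia, had 7.53 ± 1.30 and 5.67 ± 1.53 CPM in Lmnb1-/- (SD, n = 3) and 8.30 ± 2.14 and 6.06 ± 1.49 CPM in wild type libraries (SD, n = 4), with log2 fold changes of -0.095 and 0.0085. The epithelial regulators Grhl2, Esrp1 and Elf3 were at or near 0, with at most 3 counts in a library. Esrp2, an epithelial splicing regulator, had 10.6, 6.73 and 6.17 CPM in Lmnb1-/- and 14.8, 23.8, 15.1 and 13.1 CPM in wild type libraries, a log2 fold change of -0.98 (edgeR, adjusted p = 0.157).

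Markers of the labelled tissue were present, and 1 of the other marker lists had sums that lay apart between genotypes. All 12 epicardial and mesothelial markers were tested and 10 were below 0, as were 5647 of all 10775 tested genes. None passed the threshold. Ranges lay apart in 3 of the 12, Wt1, Aldh1a2 and Bnc1, each lower in Lmnb1-/-, and in 13.3% of all tested genes. The summed level of the 12 was 3229 to 3961 CPM in Lmnb1-/- and 3631 to 4798 CPM in wild type libraries. All 10 smooth muscle and pericyte markers had counts, 9 were tested, all 9 were below 0 and 5 passed, where 0.705% of all tested genes did. Their sum was 8616 to 9422 CPM in Lmnb1-/- and 11266 to 12886 CPM in wild type libraries, with no overlap. Acta2 and Tagln made up most of it, with means of 3617 and 4185 CPM in Lmnb1-/- and 5138 and 5302 CPM in wild type explants. These 5 calls were not followed under the alternatives. Calls over all genes ran from 3 to 279 on leaving out each library. Endothelial markers summed to 46.8 to 57.8 CPM in Lmnb1-/- and 31.3 to 62.4 CPM in wild type libraries, with Cldn5 at 0 in every library. Macrophage markers summed to 36.7 to 429 CPM in Lmnb1-/- and 57.9 to 240 CPM in wild type libraries, and were highest in Lmnb1-/- replicate 3. Cardiomyocyte markers, whose desmosomes also hold Pkp2, Jup and Dsp, summed to 431 to 576 CPM in Lmnb1-/- and 375 to 772 CPM in wild type libraries, mostly from Myl7 and Tnnt2, with Myh7 and Actn2 at 0. Erythroid markers summed to 20.9 to 234 CPM in Lmnb1-/- and 17.3 to 187 CPM in wild type libraries. The part of these cells in the values of Cgnl1, Ezr and the other members was not tested.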

How the data were processed

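RNA was extracted from 7 explant cultures and libraries were made with the TruSeq RNA v2 kit, which does not mark strand, per the labels' protocols. TopHat, edgeR and mm9 are named, without versions or roles, per the submitters' processing notes, and the counting program and annotation are not given in the sources used here. The deposited tables hold 2 columns without names, each with whole-number counts per gene, and the first was used. The second held 16.6 to 19.6% of all counts and its meaning is not stated. The members and lists were chosen with earlier results of these data known.

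Low counts were removed with filterByExpr, and counts were scaled by TMM and tested with edgeR 4.0.16 (limma 3.58.1, R 4.3.3), quasi-likelihood with robust dispersion, without covariates, with Benjamini-Hochberg adjustment over 10775 genes. Each SE came from the log2 fold change and the F statistic. Exon lengths came from GENCODE vM21 (GRCm38), which is not the authors' build, so levels per kb are approximate. Replicate libraries of a group differed beyond sampling noise (chi-square per degree of freedom 2.22 to 7.71). Intervals cover the spread between libraries and floors cover counting error only. Library number groups placed Lmnb1-/- replicate 1 with wild type replicate 1, wild type replicates 2 and 3 together, and Lmnb1-/- replicates 2 and 3 with wild type replicate 4, from the S numbers in the deposited tables' names, and the labels give no batch. DESeq2 1.42.0 and limma voom were alternatives. Genes given in full were those past the threshold, and in each class the 4 of smallest p and the 2 of highest level per kb. Of these, Jam3 and Pard6b are given by fold change and interval only. Cgn was added as the paralogue of Cgnl1. For the other lists up to 3 genes of smallest p were named, with Cdh1, Cdh2 and Ctnnb1, and any member could be named. Grhl2, Esrp1 and Elf3 were chosen after their values were seen.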

Additional observations from a re-analysis of the deposited data

Results flagged for a closer look

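Jup stood at 138 CPM in wild type replicate 2, far above the 53.1 to 62.9 CPM of the other wild type libraries. Dlg1 stood at 375 CPM in the same library, above the 298 to 301 CPM of the others. In both the gap to the nearest library took up most of the range of the 4 wild type libraries (0.886 and 0.964 of it, against a critical value that chance passes in about 1 of 20 groups), and 29 members were examined in this way. Wild type replicate 2 had the fewest counts of the 7 libraries.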

How the results depend on the processing

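The count of members called was 1 and became 2 without a count filter and with DESeq2 (Cgnl1 and Ezr in both), 0 with sex as a covariate and 0 within male libraries, and 0 to 2 on leaving out each library. The count of other junction genes called was 0 and became 2 without a filter (Crb2 and Cdh3) and 4 with DESeq2 (Krt8, Amot, Crb2 and Cdh3). It was 2 with the replicate block (Crb2 and Amot) and 2 with library number groups as a block (Csda and Amot). On leaving out each library it was 0 to 1, with Csda called without wild type replicate 1. Over all genes 76 became 180 without a filter, 175 with DESeq2, 44 with both count columns summed, 38 with sex as a covariate and 3 to 279 on leaving out each library, and library totals gave 47 higher and 26 lower in place of 39 and 37. Replicate numbers did not pair the libraries (correlations of deviations 0.26, -0.16 and -0.090). With the replicate block 1 member, Cgnl1, and 96 genes in all were called. Between genotypes, the highest such correlations were those of libraries sharing a number group. Wild type replicate 4 had 0.33 with Lmnb1-/- replicate 3 and 0.19 with Lmnb1-/- replicate 2, and the replicates 1 had 0.26. Pairs from different number groups ran from -0.45 to 0.16. No mutant library shared a number group with wild type replicates 2 and 3, so the block on number groups compared genotypes without them. Whether the number groups were batches was not tested. Fold changes under the alternatives were computed for 49 genes, the 29 tested members and 20 other junction genes, and 31 kept their direction in each alternative that could be fitted. None of the 18 that changed sign was called. Summed columns gave 0.0013 for Ctnnb1, RLE size factors 0.00072 and DESeq2 7.6e-05, and for Klf5 summed columns gave -0.056, DESeq2 -0.011, the replicate block -0.067, sex as a covariate -0.098 and male libraries -0.11. Limma voom gave -0.018 for Dsg2. Library totals gave 0.0090 for Ctnna1 and for Scrib, 0.033 for Pvrl3, 0.0064 for Pkp2 and 0.045 for Ctnnb1. The replicate block gave -0.019 for Pvrl2, 0.044 for Pvrl3, 0.013 for Pkp2 and 0.020 for Ctnnb1. Sex as a covariate gave -0.045 for F11r, -0.020 for Pvrl2, 0.66 for Dsc2, -0.15 for Dsp, -0.23 for Pard6g, -0.043 for Cgn and 0.0037 for Ctnnb1. Male libraries gave -0.048 for F11r, -0.019 for Pvrl2, -0.15 for Dsp, -0.23 for Pard6g, -0.045 for Cgn and 0.0018 for Ctnnb1. The number groups gave 0.19 for Jup, -0.051 for Cgn, 0.073 for Msn and 0.018 for Ctnnb1. Leaving out each library gave -0.096 to 0.21 for F11r, -0.068 to 0.011 for Ctnna1, -0.026 to 0.11 for Pvrl2, -0.37 to 0.12 for Jup, -0.051 to 0.29 for Dsp, -0.098 to 0.013 for Pkp2, -0.18 to 0.094 for Msn, -0.033 to 0.041 for Ctnnb1, -0.23 to 0.039 for Klf4, -0.078 to 0.25 for Cgn, -0.30 to 0.45 for Dsg2, -0.0059 to 0.077 for Pard3, -0.049 to 0.20 for Pard6g, -0.064 to 0.046 for Pvrl3, -0.092 to 0.024 for Scrib, -0.058 to 0.14 for Tjp1 and -0.26 to 0.14 for Klf5. The tight junction median was 0.21 without Lmnb1-/- replicate 1, against 0.10 over all libraries. The cause of these changes was not tested. With 1024898 counts in the shallowest library, 3 counts made 3.10 CPM there, which limits every statement on the 13 untested members.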
